A study of Gasterosteus aculeatus with 62 samples.

Results

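Threespined stickleback (Gasterosteus aculeatus) males differ from each other in brain gene expression, and 100 genes were described here whose spread between males was large in the diencephalon and smaller in the telencephalon. The members were taken from 20805 gene models with Ensembl identifiers, out of 22295 gene models counted. A gene was eligible when its mean over 60 libraries was at least 5 CPM (counts scaled to a common library total, per 1 M counts in gene models), when the medians of the 2 regions lay within 4-fold, and when its deviations in the 2 regions correlated below 0.3 across 30 males. A deviation is the log2(CPM + 0.5) of a library minus the mean of its region and treatment. Of 13042 genes that met the criteria on level and medians, 4301 were eligible, and the 100 with the largest diencephalon SD of deviations minus telencephalon SD were the members. The label for these genes, varying in the diencephalon only, goes further than the values, since every member also varied in the telencephalon.

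The libraries came from males that had built a nest and were killed for dissection 1 hour after a trial. The labels name no strain, age or transgene, and no manipulation other than the trial. Control males (7) met empty cages, courtship males (8) a caged egg-bearing female, predator males (8) a model trout with odour cues, and tradeoff males (8) a female and a model trout at once. The labels do not repeat the odour cues for the tradeoff. Each library held polyadenylated RNA from 1 region of 1 male, so the spread within a treatment is a spread between animals, and nothing in the labels repeats a dissection or a library of the same animal. Male 42, a predator male, was left out by the selection, which left 30 males and 60 libraries, and its libraries were used only as held-out values. A deviation of male 42 is taken from the mean of the other predator males. The means for the 30 males include the male itself, which makes their deviations smaller than on the footing of male 42.

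The diencephalon of a fish holds the hypothalamus, the thalamus and the habenula. The hypothalamus is built of many small nuclei whose neurons make neuropeptides, receive hormone signals and drive the pituitary, and it takes part in the control of reproduction, feeding and the stress response. The telencephalon holds the pallium and subpallium, which are known for learning, appetitive behaviour and the weighing of social cues. The name table at hand paired with 0 of the 22295 identifiers, so the members are given by identifier, with no name, role or sequence. For the same reason the dissections could not be checked against defining markers of the regions, and no markers of neighbouring tissues could be read. RNA was measured in whole dissected regions, where fewer cells of a type and less RNA per cell cannot be told apart.

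Depth in gene models was 26.6 to 47.7 M counts in the 30 diencephalon libraries (median 34.8) and 26.2 to 51.1 M in the 30 telencephalon libraries (median 36.1). A regional index, the mean log2-CPM of the 500 genes highest in telencephalon minus that of the 500 genes lowest, ran from -1.24 to -0.93 in the diencephalon and from 0.61 to 2.54 in the telencephalon of the 30 males. The telencephalon library of male 42 stood apart at -2.0, on the far side of every diencephalon library. Its diencephalon library had the lowest index of the 31 diencephalon libraries, -1.28. The libraries of male 42 therefore go partly against their labels, and values from them are given apart from the others.

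The values that chose the members are a description. In the diencephalon the SD of deviations over the 30 males ran from 0.176 to 1.85 among the members, with a median of 0.311, against a median of 0.134 among the 4301 eligible genes. In the telencephalon the members' SD ran from 0.0775 to 1.65, with a median of 0.179, against 0.140 among the eligible genes. The members thus lay above the eligible genes in both regions, by more in the diencephalon. The SD that counting alone would give a member in the diencephalon was 0.0577 at the median and 0.193 at most, well under the SD measured in most of them. The SD difference ran from 0.0833 to 0.447. The threshold fell in a dense range. ENSGACG00000005266, the last member, had a difference of 0.0833 (SD 0.193 in the diencephalon and 0.109 in the telencephalon), and ENSGACG00000008544, just outside, had 0.0828 (SD 0.283 and 0.200).

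**Figure D1:**
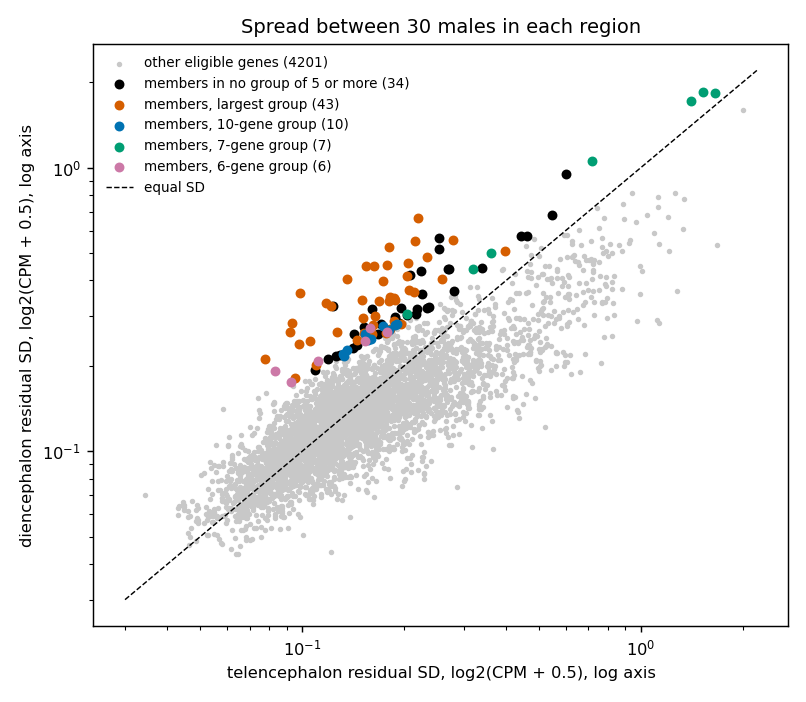
SD of deviations over 30 males in the telencephalon (horizontal, log axis) and the diencephalon (vertical, log axis), in log2(CPM + 0.5), for 4301 eligible genes. Grey points are eligible genes that are no members, coloured and black points the 100 members, and the dashed line marks equal SD; the members lie above the line because the rule chose them so.

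The rule used no correlation between members. It did choose on the diencephalon SD, so genes that share an outlying diencephalon library can be chosen together. When the members were joined by the correlation of their diencephalon deviations (average linkage, groups cut at a distance of 0.5), 66 of the 100 fell into 4 groups of at least 5 genes, and 34 fell into none. The groups held 43, 10, 7 and 6 genes. With each gene scaled to unit SD, the first principal component of the members' diencephalon deviations held 44.0% of their variance, against 18.6% in the telencephalon. The members were chosen for their diencephalon spread, so this difference between regions is a description. A mirror set, the 100 genes chosen by the same rule with the regions exchanged, had 50.7% in its first component in the telencephalon, so a shared pattern of this kind was not peculiar to the diencephalon.

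The deviations of the members were concentrated in few animals. The male with the largest diencephalon deviation was predator male 17 in 47 members, control male 12 in 19, control male 30 in 7 and control male 20 in 6. Males 12 and 17 together held 32.8% of a member's squared deviations at the median, against 9.56% among the eligible genes. In 35 members they held over 50%, against 2.84% of the eligible genes, and 32 of the 35 were in the largest group. Without these males the median diencephalon SD of the members was 0.240, and the diencephalon SD was above the telencephalon SD in 89 of 100 members, against 32.9% of the eligible genes. The rule chose the members on these same libraries, so nothing is read from these counts.

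**Figure D2:**
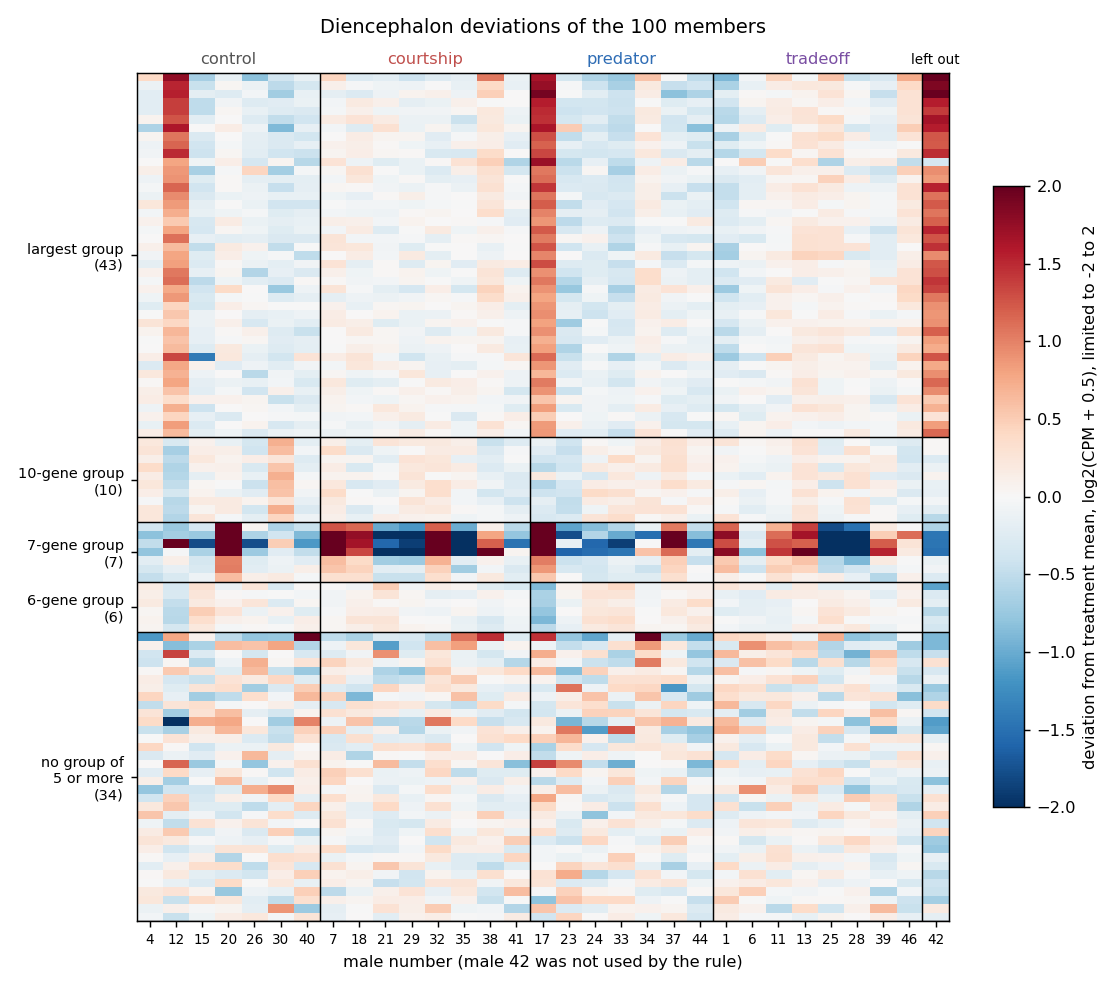
Diencephalon deviations of the 100 members (rows, ordered by group) in 30 males by treatment and in the held-out male 42 (columns), in log2(CPM + 0.5), with the colour limited to -2 to 2. The 43 genes of the largest group are red in males 12 and 17, and all but ENSGACG00000014873 are red in male 42. The 7-gene group is strongly red or blue in many males of each treatment.

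The largest group held 43 genes that were high together in the diencephalon of 2 males. ENSGACG00000005780 lay closest to the mean profile of the group. Its diencephalon level in the 7 control males ran from 25.2 CPM through a median of 32.3 to 78.6 CPM in male 12, with the next highest at 35.7. In the 8 courtship males it ran from 31.1 through 32.9 to 41.6 CPM. In the 7 predator males it ran from 25.9 through 29.4 to 97.3 CPM in male 17, with the next highest at 38.9. In the 8 tradeoff males it ran from 22.6 through 32.2 to 38.7 CPM. The treatments overlapped, and males 12 and 17 stood clear of all others. In the telencephalon the same gene ran from 39.9 to 74.0 CPM over the 30 males, where male 12 had 52.5 and male 17 the lowest value. The held-out diencephalon of male 42 had 105.4 CPM, above every one of the 30.

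ENSGACG00000003678 had the third largest SD difference and followed the same males at a higher level. Its diencephalon level was 450.2 CPM in male 12 and 574.4 CPM in male 17, while the other 28 males ran from 87.5 to 194.9 CPM, with a median of 136.1. Male 42 had 625.4 CPM. Its telencephalon level ran from 60.2 to 107.8 CPM over the 30 males, with 107.8 in male 12 and 75.2 in male 17. In the telencephalon the next highest male, tradeoff male 39, had 107.0 CPM, so the highest males there were close together.

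ENSGACG00000003902 had the largest SD difference of all members. Its diencephalon level was 86.1 CPM in male 12 and 101.5 CPM in male 17, against 13.0 to 49.0 CPM in the other 28 males. Courtship male 38 was the highest of the 28. Male 42 had 167.0 CPM. In the telencephalon it was low and even, from 6.09 to 12.4 CPM, with 8.01 in male 12 and 9.99 in male 17.

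Over the 43 genes, the mean deviation in the diencephalon was 0.91 in male 12 and 1.11 in male 17, and -0.36 to 0.20 in the other 28 males. In the telencephalon it was 0.01 in male 12 and -0.02 in male 17, and -0.08 to 0.08 in the other 28. Males 12 and 17 were the 2 highest of 30 diencephalon libraries in 43 of the 43 genes, against 4.05% of the eligible genes. These genes were grouped on the same deviations, so that count describes the group and tests nothing. The grouping used the diencephalon only, so a high correlation between pairs there was built in. The mean correlation between pairs of the 43 genes was 0.787 in the diencephalon, against 0.0323 in the telencephalon. Without males 12 and 17 it was 0.407 in the diencephalon, so the genes co-varied in the other 28 males as well. Those 28 were also used to form the group, so this value is a description. Without males 12 and 17 the median diencephalon SD of the group was 0.175, against 0.339 with them, and the median telencephalon SD was 0.163.

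Male 42 was not used to choose or to group the genes. Its diencephalon was above the highest of the 28 other males in 42 of the 43 genes, against 8.97% of the eligible genes, and in the same 42 genes males 12, 17 and 42 were the 3 highest of 31. This is a single library, and the 43 genes were grouped for deviating together, so they are not separate observations. The mean deviation of the 43 genes from the other 7 predator males, male 17 among them, was 1.15. The exception was ENSGACG00000014873, named after its value was seen, with a deviation of -0.33 in male 42. The telencephalon of male 42 had a mean deviation of -0.25 over the 43 genes. That library stands apart in region, as given above, so this value has no clear meaning.

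**Figure D3:**
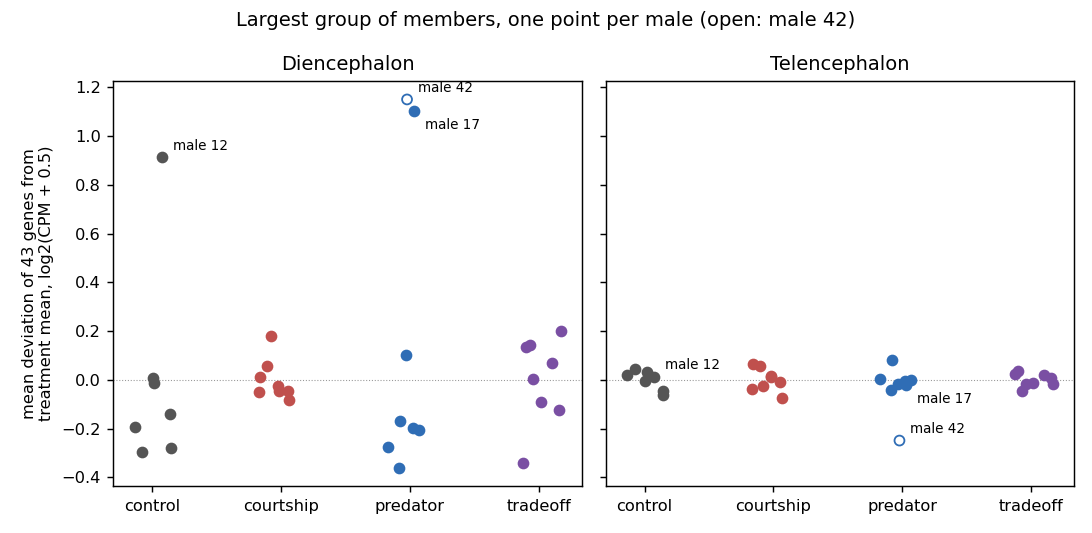
Mean deviation of the 43 genes of the largest group in each male, in log2(CPM + 0.5), by treatment, in the diencephalon (left) and telencephalon (right). Filled points are the 30 males and open points the held-out male 42. Males 12, 17 and 42 lie between 0.91 and 1.15 in the diencephalon, above the other 28 males at -0.36 to 0.20. Male 42 is set against the mean of the other predator males, and the 30 males against means that include them, so their order is not compared.

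Library measures of these males stood as follows. Depth in the diencephalon was 28.0 M counts in male 12, 32.3 M in male 17 and 33.4 M in male 42, inside the range of the others. The share of reads aligned to several places was 13.5% in male 12 and 14.6% in male 17, where male 17 had the highest share of the 31, and it was 10.2% in male 42, at the median of the 31 (10.2%). In the diencephalon, males 13, 24 and 33 had shares of 14.4%, 13.9% and 13.2%. Their mean deviations of the 43 genes were 0.14, -0.20 and -0.36. The telencephalon library of male 17 had a share of 14.1%, and deviations of the 43 genes of -0.73 to 0.28. The part of this share in the deviations was not tested. The regional index of the diencephalon was -1.22, -1.23 and -1.28 in males 12, 17 and 42, at the low end of the 31. Control males 26 and 40 had indices as low, -1.24 and -1.23, with mean deviations of the 43 genes of -0.14 and -0.19. When the deviations were also regressed on the index, 37 of the 43 genes stayed members. The genes of the index were chosen on these same libraries, and neither members nor genes that follow them were kept out of it. The index is thus not a measure separate from the deviations, and nothing is read from that count. Where the cut of the dissection ran, and which other tissue or cell type it held, was not tested, since no marker could be named.

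The same males deviated together in many genes beyond the members. Of 16975 gene models with a mean of at least 1 CPM in the diencephalon, 141 had deviations that correlated above 0.8 with the mean profile of the 43 genes. Of these, 38 were members and 103 were not. Each of the 103 was assigned the first criterion it failed, in the order of identifier, mean, medians, correlation and rank: 28 ranked below 100, 26 correlated at 0.3 or more between regions, 24 had region medians over 4-fold apart without having failed earlier, 20 had a mean under 5 CPM and 5 had no Ensembl identifier. Male 42 was above the 28 other males in 103 of the 103, against 7.19% of the 16975 models. These models were chosen for following a single profile, so they are not separate observations of male 42. Of the 103, 28 (27.2%) had a diencephalon median over 4-fold above the telencephalon median, against 2.49% of the 16975 models. In 4 the telencephalon median was over 4-fold higher. By the rule no member could have such medians, so 28 is also the count among all 141, a share below 27.2%. ENSGACG00000014031, named after its values were seen, had a median of 47.2 CPM in the diencephalon and 0.132 CPM in the telencephalon, and deviated by 2.44 in male 12, 2.89 in male 17 and 3.08 in male 42. The value of male 42 is from a mean without it, and those of males 12 and 17 are from means that include them. The criterion on medians kept such genes out of the members. In the opposite direction, 10 models correlated below -0.8, none of them a member, and male 42 was below the 28 others in 10 of the 10, against 10.5% of all models. These 10 were chosen on the same profile, so they too are not separate observations.

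The 6-gene group moved against the largest group. Its genes correlated with the 43 genes at -0.598 on average in the diencephalon. ENSGACG00000012084, closest to its mean profile, had 19.4 CPM in the diencephalon of male 12 and 14.8 CPM in male 17, against 25.9 to 39.8 CPM in the other 28 males. Male 42 had 22.8 CPM, below all 28. In the telencephalon the gene ran from 28.7 to 48.0 CPM, with male 12 at 31.4 and male 17 at 40.1. The mean deviation of the 6 genes in the diencephalon was -0.43 in male 12 and -0.73 in male 17, and -0.15 to 0.30 in the other 28. Males 12 and 17 were the 2 lowest of 30 in 6 of the 6 genes, against 9.79% of the eligible genes, a count that describes the group, since it was formed on these deviations. Male 42, held out, was below the lowest of the 28 in 6 of 6, against 16% of the eligible genes. The 6 genes were grouped for deviating together, so they are not separate observations. Their mean deviation in male 42 was -0.46. In the telencephalon males 12 and 17 had -0.04 each.

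The 7-gene group varied most of all, and in both regions. Its diencephalon SD ran from 0.305 to 1.85 and its telencephalon SD from 0.204 to 1.65. ENSGACG00000008195 lay closest to its mean profile and had the most extreme single deviation of all members. In the diencephalon it ran from 1.47 CPM through a median of 1.75 to 62.0 CPM in the control males, where male 20 had 62.0 and the next highest 2.28. It ran from 1.57 through 10.9 to 52.3 CPM in the courtship males, from 1.30 through 2.94 to 68.3 CPM in the predator males and from 1.95 through 36.5 to 71.4 CPM in the tradeoff males. High and low males occurred in every treatment, though male 20 was the only high control male. No male of the 30 lay between 5.28 and 16.5 CPM, with 17 males below this gap and 13 above it. The control and predator medians lay below the gap, the courtship median inside it and the tradeoff median above it. Male 42 was among the low males, at 1.77 CPM. In the telencephalon the gene ran from 0.356 to 4.47 CPM in 28 males, and was at 179.9 CPM in control male 30 and 42.3 CPM in tradeoff male 46.

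The high males of the 2 regions overlapped only in part. For ENSGACG00000008195, male 46 was high in both, with 44.7 CPM in the diencephalon, while male 30 was high in the telencephalon and at 2.28 CPM in the diencephalon. ENSGACG00000016460, another gene of the group, had 459.7 CPM in the telencephalon of male 30 and 150.3 CPM in that of male 46, while the other 28 males had 17.4 CPM at most. In the diencephalon the same gene had 2.87 CPM in male 30, 29.5 CPM in male 46 and 110.5 CPM in the highest male, tradeoff male 13. ENSGACG00000015077, with the fourth largest SD difference of all members, had 88.8 CPM in the telencephalon and 3.05 CPM in the diencephalon of male 30, and 30.2 CPM in the diencephalon and 5.14 CPM in the telencephalon of male 17. Over the 7 genes the mean deviation was 2.10 in the diencephalon of male 20, whose telencephalon had -0.34. Male 30 had -0.11 in the diencephalon but 3.10 in the telencephalon. The 7 genes correlated with each other at 0.826 on average in the diencephalon and 0.599 in the telencephalon. Their correlations between regions ran from -0.106 to 0.201. The low correlation between regions was a condition of the rule, while the co-variation within each region was not. The co-variation in the diencephalon did form the group. Without males 12 and 17 the diencephalon value was 0.820. In the telencephalon males 30 and 46 stood far above the others, and the value of 0.599 was not computed without them.

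**Figure D4:**
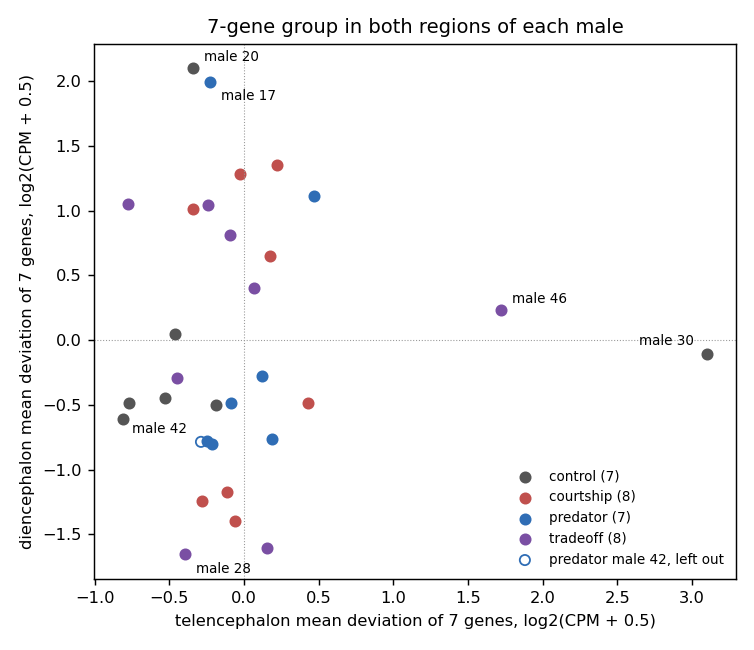
Mean deviation of the 7-gene group in the telencephalon (horizontal) and diencephalon (vertical) of each male, in log2(CPM + 0.5), coloured by treatment, with male 42 open. Males 20 and 17 are at the top with telencephalon values near 0, while males 30 and 46 lie far to the right at 3.10 and 1.72 with diencephalon values of -0.11 and 0.23.

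The 10-gene group held the most abundant member. The mean CPM of its genes ran from 13.2 to 911.7, with a median of 94.7, against a median of 21.6 over all members. All 10 had the higher median in the telencephalon. ENSGACG00000020905 had the highest mean of all members, 911.7 CPM, and lay closest to the mean profile of this group. In the diencephalon it ran from 360.0 CPM in male 12 through a median of 580.0 to 799.3 CPM in male 30 among the control males. It ran from 472.4 through 604.2 to 690.8 CPM in the courtship males, from 390.2 (male 17) through 630.8 to 722.8 CPM in the predator males and from 499.6 through 614.2 to 742.4 CPM in the tradeoff males. The treatments overlapped over most of their ranges. In the telencephalon male 30 was the lowest of the 30 at 805.5 CPM and male 12 the next at 807.1 CPM, against up to 1585 CPM. Over the 10 genes, male 30 had a mean deviation of 0.55 in the diencephalon and -0.33 in the telencephalon, and male 12 had -0.51 and -0.27. The telencephalon libraries of males 30 and 12 had low regional indices for that region, 0.61 and 1.25 against a median of 2.23, while the diencephalon index of male 30 was -1.10, near the median of -1.11. The part of the index in the deviations of these genes was not tested. The mean correlation between pairs of the 10 genes was 0.695 in the diencephalon, against 0.414 in the telencephalon. The group was formed on the diencephalon correlations, so a high value there was built in and nothing is read from the difference. The telencephalon library of male 42 had a mean deviation of -3.14 in these genes, beside an index of -2.0.

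The remaining 34 members shared no such pattern. ENSGACG00000013640, second in SD difference, ran from 1.59 to 30.7 CPM in the diencephalon of the 30 males, where control male 40 had 30.7 and predator male 34 had 23.4, and the median was 3.09. In the telencephalon it ran from 1.58 to 12.8 CPM. Of the 34 members, 28 had the higher median in the telencephalon, against 45.1% of the eligible genes, while in the largest group 31 of 43 had the higher median in the diencephalon, against 54.9% of the eligible genes.

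Spread within treatments followed the males named above. In the largest group the median diencephalon SD was 0.401 within the control males and 0.503 within the predator males, the treatments of males 12 and 17, against 0.143 within courtship and 0.231 within tradeoff. In the telencephalon the same medians were 0.218, 0.138, 0.168 and 0.140. In the 7-gene group the diencephalon SD was alike in all treatments, with medians of 1.07 to 1.15.

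The rule removed the treatment means, so it did not use the treatment differences tested here. It did choose the members for a large diencephalon spread within treatments, against which these tests weigh a difference. That choice works against a member being called, so low counts of members do not show that the treatments left them unchanged. Each region was fitted with edgeR's quasi-likelihood test over all gene models, without male 42, with Benjamini-Hochberg adjustment over the models tested. No member was called at an adjusted p of 0.05 in any of the 6 diencephalon contrasts, and neither was any of the other gene models (0% of 18918). DESeq2 called 0 members in the same contrasts, and 7 gene models for courtship, 1 for tradeoff, 2 for the female effect and 1 for the departure from additivity. At an unadjusted p under 0.05, 2 members passed for courtship against control (4.63% of all models), 1 for predator (3.26%) and 5 for tradeoff (3.85%). For the predator cue effect, the mean of predator and tradeoff minus the mean of control and courtship, 2 passed (3.83%). For the departure from additivity of both cues 2 passed (2.84%). These counts lie near the background shares, though the choice of members for a large spread may lower them, by an amount not tested.

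For the female effect, the mean of courtship and tradeoff minus the mean of control and predator, 11 members passed at an unadjusted p under 0.05 (5.96% of all models). Of these, 5 were estimated higher with a female (2.64%) and 6 lower (3.31%). ENSGACG00000002535 had the smallest p of the members estimated higher. Its diencephalon level was 5.51 CPM at the lowest, 9.67 at the median and 14.2 at the highest in control males, 6.73, 8.03 and 12.2 in predator males, 10.02, 13.5 and 16.3 in courtship males, and 6.72, 11.9 and 17.4 in tradeoff males. The medians with a female were higher and the groups overlapped. The log2 fold change was 0.41 (SE 0.14), with an unadjusted p of 0.00508 and an adjusted p of 0.814 by edgeR. ENSGACG00000016030, a gene of the largest group, had the smallest p of those estimated lower, with a log2 fold change of -0.59 (SE 0.24) and an adjusted p of 0.814 by edgeR. Its diencephalon level was 24.2 CPM in male 12 and 30.2 CPM in male 17, against 3.85 to 13.6 CPM in the other 28, and both of these males were in treatments without a female.

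That held for the largest group as a whole. For the female effect 42 of its 43 genes were estimated lower, with a median log2 fold change of -0.15 and a median SE per gene of 0.14, while 50.8% of all models were estimated lower, with a median of -0.0015. With male 42 included the median was -0.24. Of all 100 members, in this group or not, 20 then passed at an unadjusted p under 0.05, against 6.40% of all models in that fit. Without males 12 and 17 the median was 0.05, with 39 of the 43 estimated higher, against 50.3% of all models in that fit. Of all 100 members, in this group or not, 11 then passed, against 4.72% of all models, and 11 of these 11 were estimated higher. The 3 males high in these genes were all without a female, and the direction of the estimate in the group turned when 2 of them were left out. Males 12 and 17 were the 2 highest of 30 in each of the 43 genes. Leaving them out therefore had to raise the female effect in the group, and nothing is read from the turn. The 43 genes were grouped for deviating together, so they are not separate observations, and the counts by direction are a description.

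**Figure D5:**
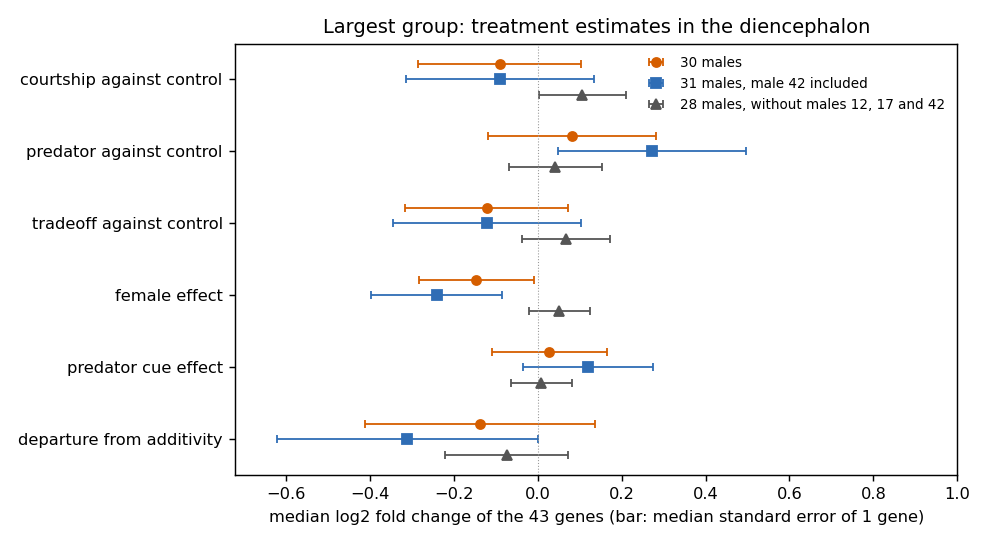
Median log2 fold change of the 43 genes of the largest group in 6 diencephalon contrasts, from edgeR fits to 30 males (circles), 31 males (squares) and 28 males without males 12, 17 and 42 (triangles). Bars are the median standard error of a single gene; the female effect is -0.15, -0.24 and 0.05 in the 3 fits.

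The 7-gene group had the largest estimates and the largest errors. For ENSGACG00000016460 the 7 control males had 1.79 CPM at the lowest, 2.30 at the median and 28.8 at the highest in the diencephalon. The courtship males had 1.74, 33.9 and 90.4 CPM, the predator males 2.57, 7.65 and 77.6 CPM, and the tradeoff males 2.57, 50.1 and 110.5 CPM. The lowest males were alike in all treatments and the medians differed. The log2 fold change of courtship against control was 2.77 (SE 1.03), with an adjusted p of 0.952 by edgeR. That of tradeoff against control was 3.04 (SE 1.04), with an adjusted p of 0.999 by edgeR. All 7 genes of the group were estimated higher for the female effect, with a median of 0.80 and a median SE per gene of 0.45, and 2 of them passed at an unadjusted p under 0.05. These genes too were grouped for deviating together, so their shared direction is 1 pattern.

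The members of smallest p in the other contrasts and directions were mostly among the 34 in no group. ENSGACG00000010782, of the largest group, was estimated higher by 0.24 (SE 0.11) in predator against control. There male 17 had 82.3 CPM and the other predator males 46.8 to 58.1 CPM. The control males ran from 35.0 to 61.2 CPM, with male 12 the highest. ENSGACG00000008100 was estimated lower by -0.24 (SE 0.11) for the predator cue effect, and ENSGACG00000006886, of the 10-gene group, higher by 0.20 (SE 0.08). ENSGACG00000020452 was estimated lower by -0.23 (SE 0.13) in courtship against control, with an adjusted p of 0.952 by edgeR. ENSGACG00000013640 was estimated lower by -1.29 (SE 0.61) in tradeoff against control, where the control males hold male 40. ENSGACG00000005809 had the smallest p of those estimated lower for the departure from additivity, with -0.55 (SE 0.25), and ENSGACG00000006750 of those estimated higher, with 0.59 (SE 0.33). Apart from ENSGACG00000020452, the adjusted p of each was 0.999 or more by edgeR.

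In the telencephalon, 0 members were called for the female effect or the predator cue effect, against 0% and 0.0375% of 18687 models. At an unadjusted p under 0.05, 5 members passed for each, against 3.39% and 3.57%. The difference between regions of a treatment effect was tested in a fit of 60 libraries in 8 groups, as the telencephalon effect minus the diencephalon effect. No member was called by edgeR, against 0% of 19297 models for each of the 3 treatments against control. At an unadjusted p under 0.05, 6 members passed for courtship (2.86%), 4 for predator (3.77%) and 4 for tradeoff (1.94%). With the male as a block the counts were 1, 2 and 2, against 5.51%, 7.70% and 4.49% of all models. A block sharpens a test only where the regions of a male deviate together, and the rule kept genes that correlated below 0.3 there. The choice of members thus tends to hold these counts down, by an amount not tested, so nothing is read from them. In the 7-gene group 5, 3 and 4 genes were among those that passed without the block, all estimated lower. Genes that vary together are not separate observations. ENSGACG00000016460 had the smallest p, with a difference of -6.36 (SE 1.61) for courtship and an adjusted p of 0.411 by edgeR, and DESeq2 called it at an adjusted p of 0.0122. The telencephalon of the control males behind it held male 30 at 459.7 CPM, with the other 6 at 5.14 CPM or less. The tests do not show that the treatment effects of the members differed between the regions, and they do not show that they were alike.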

How the data were processed

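RNA sequencing covered 62 libraries, 1 from each region of 31 males. The authors deposited raw counts per gene model, 1 file per library, with no pooling. Per the submitters' processing notes, reads were processed with STAR and HTSeq. Their versions, the build, the annotation and the strand setting were not given in the sources used here. How reads from overlapping genes on opposite strands were assigned is therefore not known. The tally lines of the files were kept out of library sizes: 42.3% to 48.0% of tallied reads were in gene models, and the 4.66% to 14.6% aligned to several places were in no count, so genes with near-identical copies are uncertain. A further 40.5% to 48.6% of reads were tallied as in no gene model, and 0.63% to 0.81% as ambiguous between models.

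CPM, deviations and the choice of members followed the rule given at the start, with a pseudocount of 0.5. The members, groups and lists were chosen with earlier results of these data known. Marker lists fixed by symbol were not used, because 0 of 22295 identifiers matched the name table (assembly fGasAcu3.hap1.1, 52177 entries). Named genes were the 4 largest SD differences, ranks 100 and 101, the highest mean CPM, the most extreme deviation, the gene closest to each group's mean profile, and the smallest p per direction in each diencephalon contrast; those outside this rule are marked as named after their values were seen.

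Tests used edgeR 4.0.16 in R 4.3.3 (filterByExpr with minimum count 10 and minimum total 15, TMM, robust quasi-likelihood), each region alone, adjusted over all models tested. They were tested on simulated counts. Deviations were computed with pandas 2.3.3 and grouped with scipy 1.17.1. Alternatives were DESeq2 1.42.0, relative log expression size factors, no filter, male 42 included, both regions in one fit, other settings of the rule, each male left out, and, added after seeing the data, males 12 and 17 left out. Libraries with the same male number come from the same animal, per the labels: their deviations correlated at 0.00775 to 0.650 (mean 0.410) between regions, against -0.0139 between different males, and for 27 of 30 males the telencephalon matched its own diencephalon best. The region-difference fit without the block treats them as independent.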

Additional observations from a re-analysis of the deposited data

Results flagged for a closer look

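Of 68 sets of 7 or 8 values (the groups' mean deviations and the CPM of the genes described, by treatment and region), 19 held a sample farther from its neighbours than a limit that chance passes in about 1 in 20 sets. The sets share males and genes, so the flags are not independent. The members were chosen on their spread in these same libraries, and the groups were formed on the same diencephalon deviations. The rate of 1 in 20 does not hold for sets chosen in this way. The count of 19 is therefore a description and tests nothing.

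The largest group of 43 genes was flagged in the diencephalon for control male 12, with a mean deviation of 0.91, and for predator male 17, with 1.11. Its gene ENSGACG00000003678 was flagged at 450.2 CPM in male 12, 574.4 CPM in male 17 and 191.4 CPM in courtship male 38. ENSGACG00000005780 was flagged at 78.6 CPM in male 12, 97.3 CPM in male 17 and 41.6 CPM in male 38. In the telencephalon, predator male 37 was flagged at 0.0799.

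The 6-gene group was flagged in the diencephalon of male 17, at -0.73, and in the telencephalon of male 37, at 0.10. Its gene ENSGACG00000012084 was flagged at 14.8 CPM in male 17 and at 39.8 CPM in tradeoff male 25.

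The 7-gene group was flagged in the diencephalon of control male 20, at 2.10, and in the telencephalon of control male 30, at 3.10, and tradeoff male 46, at 1.72. Genes of this group had the same flag in the diencephalon of male 20, ENSGACG00000015077 at 29.3 CPM and ENSGACG00000008195 at 62.0 CPM. The 10-gene group was flagged in the telencephalon of predator male 34, at 0.0735.

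The diencephalon library of male 42, which the choice of members did not use, showed the pattern of males 12 and 17. Its mean deviation was 1.15 in the largest group and -0.46 in the 6-gene group. No cause of these deviations was tested.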

How the results depend on the processing

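Of the 100 members, 92 were chosen again with TMM-scaled CPM, 88 with a pseudocount of 2 and 75 after regression on the regional index. With the median absolute deviation in place of the SD 47 were shared, with male 42 included 44, with a minimum mean of 20 CPM 51, and without males 12 and 17 53, of which 13 were in the largest group. The median of the members' mean CPM was 21.6, and members under 20 CPM could not be chosen at that minimum. The count of 51 is therefore not a measure of how steady the choice was. Leaving out each male in turn kept 76 (male 12) to 95 members and gave a largest group of 39 to 45 genes, and without males 12 and 17 together it held 30. Membership therefore depends on a few animals and on the measure of spread.

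Members at an unadjusted p under 0.05 in the diencephalon moved by over 1.5 times in these cases, given with the share of all models in the same fit. With both regions in one fit the counts were 4 for courtship (4.32%), 2 for predator (2.86%), 11 for tradeoff (3.56%), 22 for the female effect (5.47%), 4 for the predator cue effect (3.25%) and 4 for the departure from additivity (2.54%). With male 42 included they were 2 for predator (3.18%), 20 for the female effect (6.40%) and 0 for the predator cue effect (3.30%). Without males 12 and 17 they were 2 for predator (3.67%) and 4 for the predator cue effect (4.16%), and DESeq2 gave 2 for predator (3.46%). In the telencephalon one fit of both regions gave 0 for the female effect (4.51%) and 1 for the predator cue effect (4.59%), and including male 42 gave 3 for the latter (3.25%).

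Members called at an adjusted p of 0.05 stayed at 0 in every alternative run except DESeq2's region difference of courtship, with 1. Gene models called by DESeq2 were 7 for courtship, 1 for tradeoff, 2 for the female effect and 1 for the departure from additivity in the diencephalon, 1 and 15 for the female and predator cue effects in the telencephalon, and 5, 2 and 3 for the region differences of courtship, predator and tradeoff. For the telencephalon predator cue effect, 0 were called with male 42 included and 14 with both regions in one fit. With the male as replicate block, members at an unadjusted p under 0.05 in the region differences were 1 for courtship (5.51%), 2 for predator (7.70%) and 2 for tradeoff (4.49%). The choice of members for a low correlation between regions tends to hold these counts down. The block changed no call. Without males 12 and 17 the count for tradeoff was 7 (2.14%). The causes were not tested.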

Other observations

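The likeness of males 12, 17 and 42 reached beyond the members. Over 12942 genes that met the criteria on level and medians and are no members, the diencephalon deviations of male 42 correlated across genes at 0.322 with those of male 12, 0.265 with male 17 and 0.213 with courtship male 29, and at 0.0856 or less with the other 27 males. Male 12 correlated at 0.475 with male 17, and also at 0.279 with predator male 23, 0.266 with tradeoff male 1 and 0.258 with courtship male 21. Genes are not independent replicates, male 17 shares a treatment mean with male 42, and the values are given as a description.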
